A study of Arabidopsis thaliana with 18 samples.

Results

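Plant cells conjugate glutathione to reactive and foreign molecules with glutathione S-transferases (GSTs), and the tau and phi classes are the large, mostly plant-specific branches of that family. The 41 genes described here are the complete set named GSTU1 to GSTU28 (28 tau genes) and GSTF2 to GSTF14 (13 phi genes), found by locus identifier among the 24532 genes of a root RNA-seq count table of Arabidopsis thaliana. The rule is family membership and uses no measured value, though the family was picked with earlier results of these data known. Of the 41 members, 39 had enough reads to be tested, beside 21367 tested genes in all. The libraries fell into 6 groups: line C4 at 150 mM NaCl (n = 3) and 0 mM (n = 3), line B2 at 150 mM (n = 3) and 0 mM (n = 3), and wild type (WT) at 150 mM (n = 2) and 0 mM (n = 3). C4 and B2 are each a single transgenic line and carry an isoprene synthase cDNA of Eucalyptus globulus behind the promoter of the rubisco small subunit gene RBCS1A, which is most active in green tissue. The protocols describe an empty vector line as their non-emitting control, whereas the sample labels name WT. They also describe NaCl concentrations lower than 150 mM, whereas the sample labels give 150 mM, which is used here. All groups are roots. The age of the plants, the length of exposure to 150 mM NaCl and whether the libraries of a group came from separate plants are not given in the sources used here, so p-values measure the spread between libraries, which may be technical.

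As background, a GST binds the tripeptide glutathione (glutamate, cysteine, glycine), lowers the pKa of its thiol and couples it to an electrophile, and transporters of the ABCC type then move the conjugate into the vacuole. Many tau and phi genes are switched on by xenobiotics, oxidised lipids, salicylic acid or abscisic acid, and TGA transcription factors, which bind TGACG, are textbook regulators of the xenobiotic response. Other members serve named pathways: GSTF12 (TRANSPARENT TESTA 19) brings anthocyanins to the vacuole, GSTF6 acts in synthesis of the defence compound camalexin, and GSTF11 and GSTU20 have been assigned to aliphatic glucosinolate synthesis.

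Library sizes were 54233853 to 91527683 reads counted on genes. A further WT 0 mM column held the same count as WT 0 mM library 1 in 24515 of 24532 genes, so both were taken as 1 library and WT at 0 mM has libraries 1, 3 and 4. A pair of libraries went against their labels in genes that otherwise separate the lines. ANNAT3, an annexin gene, was at 96.8 CPM (reads scaled to a common library size) in the library labelled B2 0 mM 3, against 0.457 to 1.36 CPM in the other B2 libraries. MRD1 was at 0.0499 CPM in the same library, against 36.3 to 43.1 CPM in the other B2 libraries, so both genes went against its label. MRD1 was at 33.4 CPM in the library labelled WT 150 mM 2, against 0.0965 to 2.06 CPM in the other WT libraries. ANNAT3 was at 76.0 CPM in that library. Counts of changed members are therefore given with and without both libraries, and the directions given for B2 and for WT rest partly on them.

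At 150 mM NaCl more members of the family were lower than higher. In bulk roots, fewer cells of a type and less RNA per cell cannot be told apart, which holds for all that follows. With the response averaged over the 3 genotypes, 5 of the 39 tested members rose (GSTU9, GSTU16, GSTU18, GSTF3 and GSTU17) and 19 fell (edgeR's quasi-likelihood test, adjusted p under 0.05 over all tested genes). That is 61.5% of the tested members, against 42.1% of all tested genes, of which 21.5% rose and 20.5% fell. The share of members that rose was thus below the share of all genes that rose, and the share that fell was above it. The median log2 fold change of the members was -0.42, against -0.01 over all tested genes. Among the tau genes 4 of 27 rose and 13 fell, and among the phi genes 1 of 12 rose and 6 fell. Without the 2 libraries that went against their labels, 5 members rose and 21 fell. In that fit WT at 150 mM was library 1 alone, and fewer of all tested genes were called than with all libraries. Of the 24 calls with all libraries, 20 held in each of the 17 fits that left out 1 library, and those of GSTF3, GSTF7, GSTF14 and GSTU21 did not.

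Within genotypes the counts were smaller and moved with individual libraries. In C4, 4 members rose and 7 fell (28.2% of members, against 12.1% of all genes, 6.69% higher and 5.44% lower). In B2, 2 rose and 8 fell (25.6%, against 16.2% of all genes, 9.61% higher and 6.63% lower). In WT, 4 rose and 15 fell (48.7%, against 16.6% of all genes, 9.29% higher and 7.35% lower). In each genotype the share of members that fell was above the background, while the share that rose was above it in C4, below it in B2 and close to it in WT. The median log2 fold changes of the members were -0.32 in C4, -0.43 in B2 and -0.65 in WT. Without the 2 libraries the counts were 4 up and 10 down in C4, 1 up and 6 down in B2, and 5 up and 14 down in WT. In that fit WT at 150 mM was library 1 alone. Calls over all genes were fewer in B2 than with all libraries, and similar in C4 and WT. Leaving out WT 150 mM library 1 left WT at 150 mM with only the library labelled WT 150 mM 2. Far fewer members and far fewer of all genes were then called in WT. Leaving out WT 0 mM library 1 brought the WT count of members to 11. The B2 count was 4 without B2 150 mM library 2 or 3 and 16 without B2 150 mM library 1, and the C4 count was 7 without C4 0 mM library 1 or C4 150 mM library 2. Calls over all genes moved in the same fits. Without B2 150 mM library 2, 3 or 1 they were 703, 1174 and 5728 in B2 (3471 with all libraries). Without C4 0 mM library 1 or C4 150 mM library 2 they were 1441 and 1310 in C4 (2592 with all). Without WT 0 mM library 1 they were 1761 in WT (3555 with all). The sign of the change was the same in all 3 genotypes for 29 members, negative for 23 and positive for 6. The share of all genes with the same sign in all 3 was not counted. GSTU9 and GSTU16 rose in all 3 genotypes, and GSTF11, GSTU14, GSTF10 and GSTF9 fell in all 3, against backgrounds of 3.94% of genes that rose and 2.38% that fell in all 3. These 3 comparisons use different libraries and the same estimate of the spread.

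**Figure D1:**
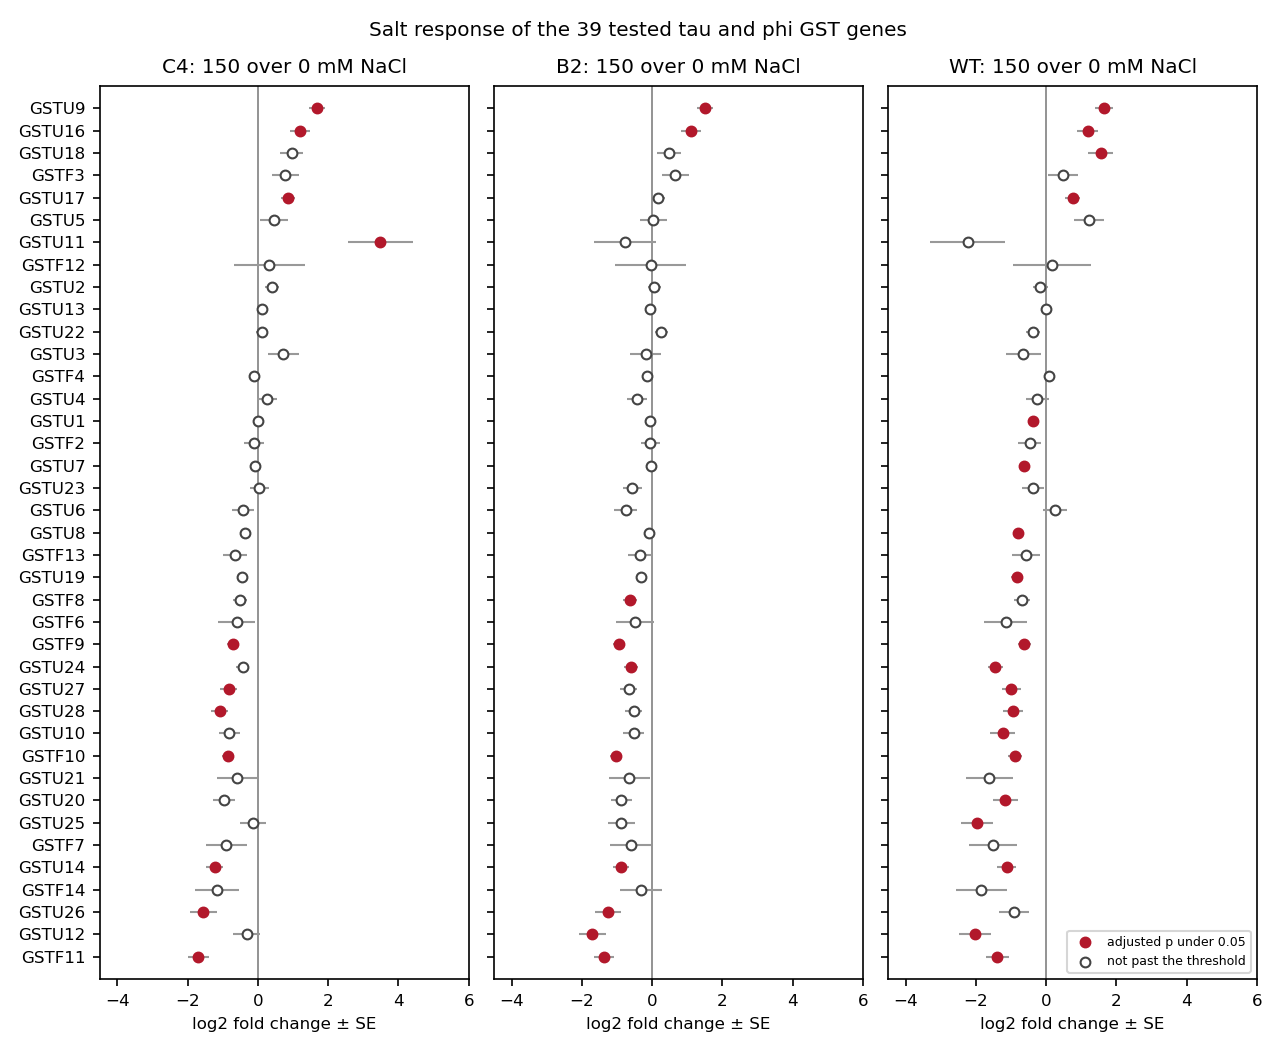
Log2 fold change at 150 over 0 mM NaCl of each of the 39 tested members (rows, ordered by the value averaged over genotypes) in C4, B2 and WT, with bars of 1 SE. Filled points passed an adjusted p of 0.05: 11 in C4, 10 in B2 and 19 in WT, and most of them lie left of 0.

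GSTU9 (AT5G62480, chromosome 5) rose most. Its level in C4 was 96.2, 145 and 111 CPM at 150 mM, against 30.5, 39.1 and 39.9 CPM at 0 mM. In B2 it was 70.9, 141 and 95.7 CPM at 150 mM, against 35.7, 42.3 and 30.6 CPM at 0 mM, and in WT 133 and 124 CPM at 150 mM, against 46.4, 31.9 and 45.4 CPM at 0 mM. All 8 libraries at 150 mM lay above all 9 at 0 mM, which was so for 5.32% of all tested genes and for no other member. The log2 fold change averaged over genotypes was 1.61 ± 0.14 (SE), a 3.05-fold difference (edgeR adjusted p = 1.78e-06). It was 1.69 ± 0.23 in C4, 1.4995 ± 0.23 in B2 and 1.64 ± 0.25 in WT, and no library left out ended the call in any genotype.

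GSTU16 (AT1G59700, chromosome 1) was less abundant and rose in every genotype, with 11.002, 19.5 and 10.2 CPM in C4 at 150 mM, against 6.48, 5.44 and 5.79 CPM at 0 mM. In B2 it had 8.18, 16.3 and 15.7 CPM at 150 mM, against 5.69, 6.22 and 6.81 CPM at 0 mM, and in WT 16.4 and 14.5 CPM at 150 mM, against 5.16, 6.101 and 9.13 CPM at 0 mM. Within each genotype the libraries did not overlap, but B2 150 mM library 1 lay below WT 0 mM library 4. The averaged log2 fold change was 1.16 ± 0.17 (edgeR adjusted p = 6.16e-05). Within genotypes the call was lost in C4 without C4 150 mM library 2 (the log2 fold change stayed between 0.85 and 1.38 with any library left out), and in B2 and WT without some of their own libraries (between 0.92 and 1.36, and between 1.02 and 1.46).

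GSTU17 and GSTU18 stand side by side and overlap by 71 bases on the same strand, so reads from the overlap could not be given to either. GSTU17 (AT1G10370), first described as ERD9 (EARLY RESPONSIVE TO DEHYDRATION 9) and known for a part in abscisic acid and drought responses, had 45.8, 44.6 and 45.3 CPM in C4 at 150 mM, against 20.7, 26.8 and 27.4 CPM at 0 mM. In B2 it had 31.99, 32.2 and 36.1 CPM at 150 mM, against 24.4, 29.5 and 35.03 CPM at 0 mM, and in WT 58.7 and 32.4 CPM at 150 mM, against 27.8, 30.6 and 22.6 CPM at 0 mM. The libraries of the 2 concentrations were apart in C4 and in WT and overlapped in B2. GSTU17 rose by 0.86 ± 0.19 in C4 (adjusted p = 0.00871) and by 0.75 ± 0.21 in WT (adjusted p = 0.0214, edgeR), and the value in B2 was 0.17 ± 0.19. Both calls were lost without some libraries, C4 0 mM library 1 for C4 and WT 150 mM library 1 or WT 0 mM library 1 or 4 for WT, with ranges of 0.74 to 0.93 and 0.26 to 1.13. GSTU18 (AT1G10360) ranged from 7.07 to 21.9 (median 11.6) CPM at 150 mM, against 3.31 to 8.35 (median 6.44) CPM at 0 mM, and rose by 0.998 ± 0.20 on average (edgeR adjusted p = 0.000888).

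**Figure D2:**
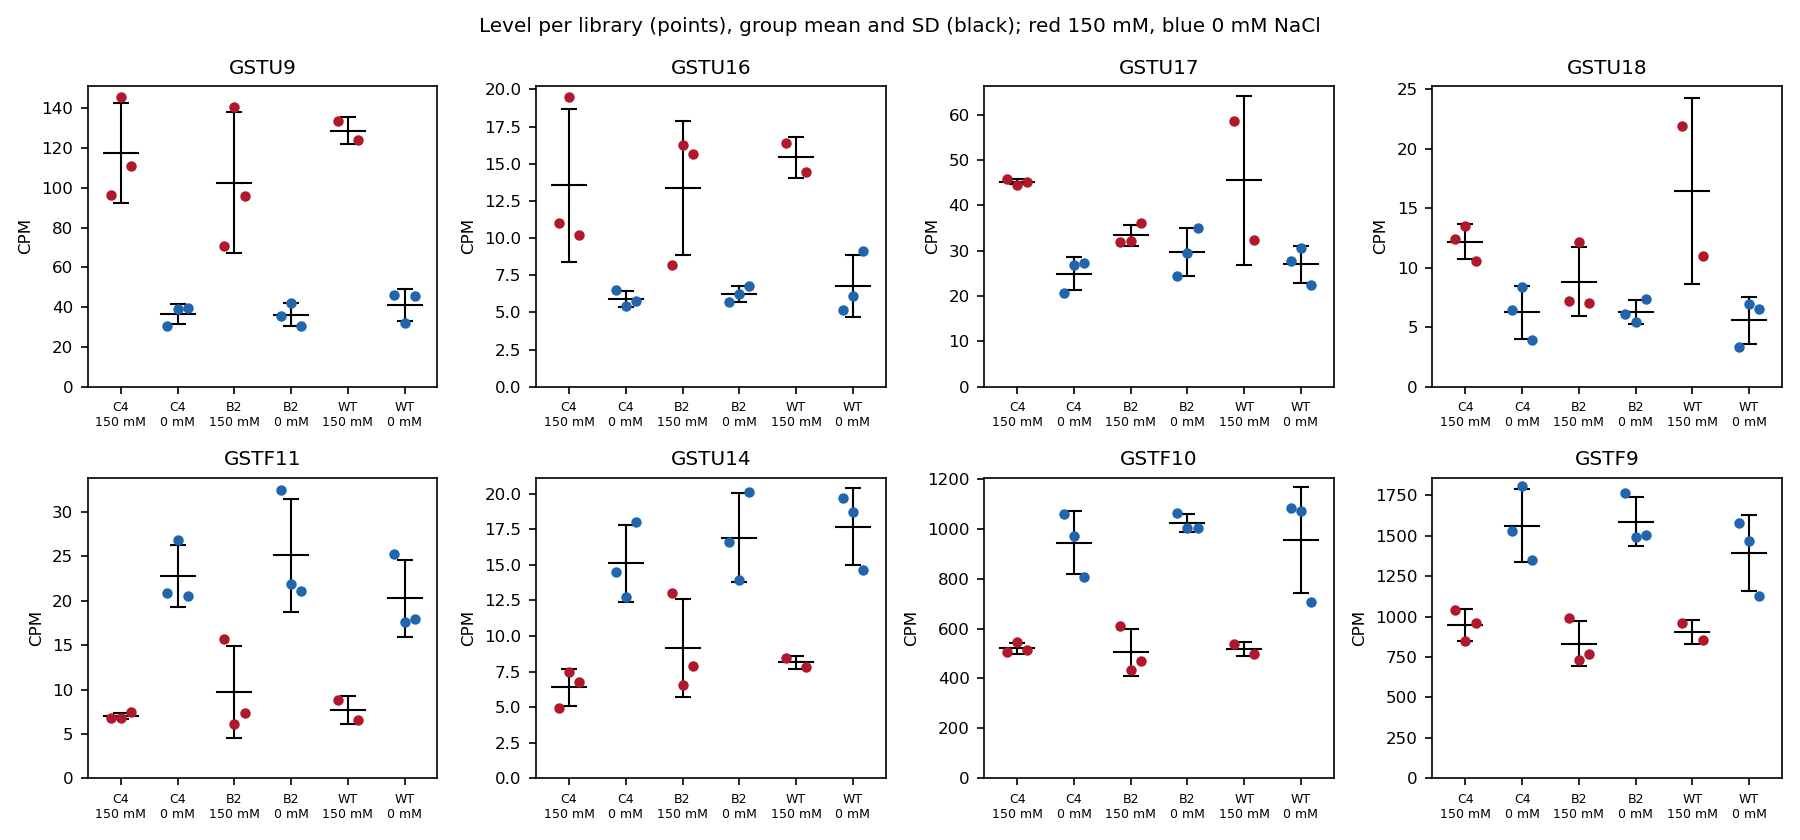
CPM of 4 members that rose (top row) and 4 that fell (bottom row) in each library (points), with group means and SDs as black lines, by genotype and NaCl. The GSTU9 points at 150 mM lie between 70.9 and 145 CPM, above all points at 0 mM, and the GSTF10 and GSTF9 points at 150 mM lie below all points at 0 mM.

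The 200 bases upstream of the annotated start are shown for the 4 members with the largest averaged changes among those called in all 3 genotypes, GSTU9 and GSTU16 that rose and GSTF11 and GSTU14 that fell. They were chosen after their values were seen and read from the TAIR10.1 reference genome of RefSeq, in which all 41 members have the same span and strand as in the deposited table. Capitals mark TGACG (the core bound by TGA factors) and ACGTG (the core of elements bound by the basic leucine zipper factors of abscisic acid signalling) on either strand. The windows are chr5:25089627-25089826 (minus strand) for GSTU9, chr1:21936078-21936277 (plus strand) for GSTU16, chr3:734692-734891 (plus strand) for GSTF11 and chr1:9427604-9427803 (plus strand) for GSTU14.
GSTU9: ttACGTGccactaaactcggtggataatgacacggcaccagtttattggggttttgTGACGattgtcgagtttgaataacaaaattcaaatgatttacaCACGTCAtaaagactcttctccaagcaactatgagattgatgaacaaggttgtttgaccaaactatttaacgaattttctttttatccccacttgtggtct
GSTU16: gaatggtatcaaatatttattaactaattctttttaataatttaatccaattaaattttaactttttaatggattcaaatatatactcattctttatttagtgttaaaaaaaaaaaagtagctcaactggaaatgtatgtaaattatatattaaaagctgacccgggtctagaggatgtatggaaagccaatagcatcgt
GSTF11: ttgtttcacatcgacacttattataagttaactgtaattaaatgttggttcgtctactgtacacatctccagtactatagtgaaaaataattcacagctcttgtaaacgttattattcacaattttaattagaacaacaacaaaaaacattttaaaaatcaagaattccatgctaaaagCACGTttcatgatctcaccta
GSTU14: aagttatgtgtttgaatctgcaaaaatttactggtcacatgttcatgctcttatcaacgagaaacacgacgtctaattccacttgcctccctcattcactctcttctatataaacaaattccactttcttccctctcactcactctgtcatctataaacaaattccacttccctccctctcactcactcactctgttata
GSTU9 held 2 matches to TGACG and 2 to ACGTG, and the run CACGTCA near the middle is an overlap of both. GSTF11 held 1 match to ACGTG and 0 to TGACG, and neither motif occurred in these windows of GSTU16 and GSTU14. Over the family, 13 of 41 members (31.7%) held TGACG in this window, against 16.0% of 24527 upstream windows of the same length, and 15 of 41 (36.6%) held ACGTG, against 20.5%. Members that rose and members that fell both held them: TGACG in 1 of 5 that rose and 6 of 19 that fell, and ACGTG in 3 of 5 that rose (GSTU9, GSTU17 and GSTU18) and 5 of 19 that fell. TTGAC (the core bound by WRKY factors) was in 23 of 41 members (56.1%), against 39.3% of all windows. The upstream window of GSTU18 lies inside the span of its neighbour GSTU17. That of GSTU2, also counted for ACGTG, lies mostly inside GSTU1. How many of all windows overlap a neighbouring gene was not counted. A match is a run of letters and not a shown binding site.

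Among the phi genes, GSTF11 (AT3G03190) fell most. It had 6.77, 6.84 and 7.44 CPM in C4 at 150 mM, against 20.9, 26.8 and 20.6 CPM at 0 mM. In B2 it had 15.7, 6.102 and 7.34 CPM at 150 mM, against 32.5, 21.8 and 21.1 CPM at 0 mM, and in WT 8.84 and 6.57 CPM at 150 mM, against 25.3, 17.6 and 17.9 CPM at 0 mM. All libraries at 150 mM lay below all libraries at 0 mM, with B2 150 mM library 1 the closest. This full separation downwards held for 5 of the 39 members (GSTF11, GSTU26, GSTF10, GSTU24 and GSTF9), against 3.89% of all tested genes. GSTF11 fell 2.804-fold on average (log2 fold change -1.49 ± 0.18, edgeR adjusted p = 1.75e-05). In WT its call was lost without either 150 mM library, with values from -1.63 to -1.18.

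GSTF9 (AT2G30860) and GSTF10 (AT2G30870) are neighbours on chromosome 2 and among the members with the highest level per length. GSTF10, whose protein was reported to bind the receptor kinase BAK1, had 505, 544 and 512 CPM in C4 at 150 mM, against 1057, 969 and 808 CPM at 0 mM. Its level in B2 was 612, 434 and 469.7 CPM at 150 mM, against 1063, 1002 and 1003 CPM at 0 mM, and in WT 537 and 497 CPM at 150 mM, against 1082, 1072 and 708 CPM at 0 mM. The 8 libraries at 150 mM were close to each other, within a factor of 1.41 of lowest to highest. GSTF9 had 1039.7, 846 and 958 CPM in C4 at 150 mM, against 1531, 1805 and 1353 CPM at 0 mM, and in B2 992, 734 and 769.8 CPM at 150 mM, against 1762, 1496 and 1507 CPM at 0 mM. In WT GSTF9 had 958 and 853 CPM at 150 mM, against 1580.1, 1466 and 1129 CPM at 0 mM. Both genes were thus lower in every library at 150 mM than in any at 0 mM. The averaged log2 fold changes were -0.92 ± 0.10 for GSTF10 (adjusted p = 9.65e-06) and -0.76 ± 0.10 for GSTF9 (adjusted p = 3.85e-05, both edgeR). In WT the call of GSTF10 was lost without WT 150 mM library 1 and that of GSTF9 without any of 5 libraries, among them both at 150 mM, with values from -1.06 to -0.78 and from -0.75 to -0.52. GSTF9 was also lost in C4 without C4 0 mM library 2 or C4 150 mM library 2, with values from -0.82 to -0.60. GSTF8, a stress-responsive gene with a TGA-type element in its promoter, ranged from 773 to 1114 (median 949) CPM at 150 mM, against 1091 to 1879 (median 1352) CPM at 0 mM, and fell by 0.61 on the log2 scale (edgeR adjusted p = 0.000869).

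GSTU24 (AT1G17170), GSTU25 (AT1G17180) and GSTU26 (AT1G17190) lie in a row on chromosome 1, and GSTU24 and GSTU25 are known for detoxifying the explosive trinitrotoluene. GSTU24 had 259, 189 and 303 CPM in C4 at 150 mM, against 349, 337 and 324 CPM at 0 mM, and in B2 322, 210.4 and 258 CPM at 150 mM, against 372, 351 and 475 CPM at 0 mM. In WT GSTU24 had 141 and 172 CPM at 150 mM, against 433, 476 and 372 CPM at 0 mM. The gap was widest in WT, with log2 fold changes of -0.43 ± 0.19 in C4 (adjusted p = 0.15), -0.60 ± 0.19 in B2 (adjusted p = 0.0391) and -1.45 ± 0.22 in WT (adjusted p = 0.00123, edgeR), and the call in WT held with any library left out while that in B2 was lost without any of 4 of its own libraries, with values from -0.77 to -0.47. GSTU26 had 66.4, 74.9 and 75.7 CPM in C4 at 150 mM, against 371, 147 and 121 CPM at 0 mM, and in B2 88.1, 50.4 and 79.98 CPM at 150 mM, against 159, 216 and 146 CPM at 0 mM. In WT GSTU26 had 102 and 47.6 CPM at 150 mM, against 168, 147 and 112 CPM at 0 mM. C4 0 mM library 1 stood well above the other C4 libraries, and the call in C4 was lost without it or without any C4 library at 150 mM, with values from -1.84 to -0.89 over all libraries left out. The averaged log2 fold changes were -0.83 ± 0.11 for GSTU24 (adjusted p = 4.24e-05), -0.999 ± 0.23 for GSTU25 (adjusted p = 0.00345) and -1.25 ± 0.23 for GSTU26 (adjusted p = 0.000667, edgeR), and each held with any library left out.

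GSTU12 (AT1G69920) and GSTU14 (AT1G27140) fell on average, while GSTU11 and GSTU13, the neighbours of GSTU12 and GSTU14, were not called in the averaged response. GSTU12 had 37.9, 13.2 and 47.3 CPM in C4 at 150 mM, against 54.4, 40.9 and 27.6 CPM at 0 mM. In B2 it had 16.95, 16.5 and 11.1 CPM at 150 mM, against 49.2, 43.999 and 51.9 CPM at 0 mM, and in WT 7.52 and 13.9 CPM at 150 mM, against 49.6, 49.4 and 32.6 CPM at 0 mM. B2 and WT libraries were apart and C4 libraries overlapped, with C4 150 mM libraries 1 and 3 at the level of the 0 mM libraries. Log2 fold changes were -0.32 ± 0.38 in C4 (adjusted p = 0.639), -1.703 ± 0.39 in B2 (adjusted p = 0.0121) and -2.04 ± 0.46 in WT (adjusted p = 0.00971, edgeR). The WT call was lost without WT 150 mM library 1 and the B2 call without B2 150 mM library 2 or 3, with values from -2.53 to -1.67 and from -1.81 to -1.54. GSTU14 had 4.95, 7.43 and 6.8004 CPM in C4 at 150 mM, against 14.5, 12.8 and 18.03 CPM at 0 mM, and in B2 13.03, 6.56 and 7.86 CPM at 150 mM, against 16.6, 13.9 and 20.1 CPM at 0 mM. In WT GSTU14 had 8.45 and 7.84 CPM at 150 mM, against 19.7, 18.7 and 14.6 CPM at 0 mM. Only B2 150 mM library 1 reached the range of the 0 mM libraries. GSTU14 fell 2.11-fold on average (log2 fold change -1.08 ± 0.14, edgeR adjusted p = 3.25e-05). The calls in B2 and WT were lost without B2 0 mM library 3, without B2 150 mM library 2 or 3, or without either WT 150 mM library, with values from -1.23 to -0.71 in B2 and -1.24 to -1.03 in WT.

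GSTU27 (AT3G43800) and GSTU28 (AT1G53680), which have no neighbouring member, fell in C4 and WT. GSTU27 had 37.9, 35.1 and 32.3 CPM in C4 at 150 mM, against 62.97, 68.4 and 56.2 CPM at 0 mM, and in B2 51.2, 35.1 and 43.4 CPM at 150 mM, against 82.2, 75.8 and 48.2 CPM at 0 mM. In WT GSTU27 had 22.9 and 40.2 CPM at 150 mM, against 81.4, 50.6 and 56.02 CPM at 0 mM. The groups were apart in C4 and WT, and B2 150 mM library 1 was just above the library labelled B2 0 mM 3. GSTU28 had 6.16, 7.46 and 6.12 CPM in C4 at 150 mM, against 12.2, 13.3 and 16.7 CPM at 0 mM, and in B2 13.5, 7.38 and 10.9 CPM at 150 mM, against 14.7, 14.95 and 16.01 CPM at 0 mM. In WT GSTU28 had 6.04 and 9.73 CPM at 150 mM, against 18.7, 16.3 and 10.5 CPM at 0 mM. No group of a genotype overlapped with its partner. Averaged log2 fold changes were -0.83 ± 0.14 for GSTU27 (adjusted p = 0.000286) and -0.85 ± 0.15 for GSTU28 (adjusted p = 0.000253, edgeR), and both held with any library left out. Within genotypes, the call of GSTU27 in C4 was lost without any of its 6 libraries (values from -0.91 to -0.76), that in WT without WT 0 mM library 1 or WT 150 mM library 1 (from -1.44 to -0.65), and that of GSTU28 in WT without WT 0 mM library 1 or 3 or WT 150 mM library 1 (from -1.32 to -0.65).

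GSTU19 (AT1G78380) was the member with the most RNA. Its level was 1456, 1353 and 1688 CPM in C4 at 150 mM, against 2188, 1800.1 and 2152 CPM at 0 mM, and in B2 2034, 1512 and 1637 CPM at 150 mM, against 2313, 2037 and 2106 CPM at 0 mM. In WT GSTU19 had 1163 and 1234 CPM at 150 mM, against 2309.8, 2125 and 2018 CPM at 0 mM. The C4 and WT libraries were apart and B2 150 mM library 1 lay within a few CPM of B2 0 mM library 2. WT libraries gave a fall of 0.84 log2 units (edgeR adjusted p = 0.00487), a call lost without WT 150 mM library 1, while the values were -0.45 ± 0.15 in C4 (adjusted p = 0.0621) and -0.32 ± 0.15 in B2 (adjusted p = 0.153). The averaged value was -0.54 ± 0.09 (edgeR adjusted p = 0.000236). Per kilobase of exon, GSTU19 made up 21.3% of the summed CPM of the family at 150 mM, against 20.5% at 0 mM (means over 8 and 9 libraries), so its share of the family stayed near a constant value as the family's level moved. GSTU20, encoded next to it and known to bind the jasmonate-conjugating enzyme FIN219, ranged from 25.2 to 60.98 (median 38.7) CPM at 150 mM, against 51.5 to 119.9 (median 76.1) CPM at 0 mM, and fell by 0.999 (edgeR adjusted p = 0.000677).

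Close copies exist within the phi class, and their counts are less certain. Over the aligned coding sequence GSTF6 and GSTF7 had 94.7% identical bases and GSTF2 and GSTF3 had 94.5%, the highest of all pairs of members, followed by GSTU13 and GSTU14 with 87.7%. The first 120 coding bases of both pairs show how few positions tell the copies apart. Capitals mark the bases that differ within a pair. All 4 genes are on the minus strand, with these bases at chr4:1111412-1111531 for GSTF2, chr2:851987-852106 for GSTF3, chr1:662072-662191 for GSTF6 and chr1:659586-659705 for GSTF7.
GSTF2: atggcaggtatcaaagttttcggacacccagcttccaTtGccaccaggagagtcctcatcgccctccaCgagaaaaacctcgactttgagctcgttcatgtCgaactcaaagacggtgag
GSTF3: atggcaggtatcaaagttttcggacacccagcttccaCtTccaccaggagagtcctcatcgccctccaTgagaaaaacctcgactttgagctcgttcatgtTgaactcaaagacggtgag
GSTF6: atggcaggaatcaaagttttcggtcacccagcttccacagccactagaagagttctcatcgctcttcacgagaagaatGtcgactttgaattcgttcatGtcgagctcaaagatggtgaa
GSTF7: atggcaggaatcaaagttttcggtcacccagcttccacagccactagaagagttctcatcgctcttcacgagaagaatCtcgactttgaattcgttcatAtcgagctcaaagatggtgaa
GSTF2 and GSTF3 differ at 4 of these 120 bases and GSTF6 and GSTF7 at 2. No run of 150 exonic bases, the read length in the labels, was shared between any members, while runs of 50 bases were. A read with a sequencing error or a trimmed end could therefore have been left uncounted.

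The copies GSTF2 and GSTF3 had very different levels, with means of 675 and 4.34 CPM per kilobase of exon over the 17 libraries. GSTF2 (AT4G02520), a protein that binds small aromatic compounds such as auxin analogues and camalexin, ranged from 415 to 1319.5 (median 944) CPM at 150 mM, against 738 to 1257 (median 1062) CPM at 0 mM, and its averaged log2 fold change was -0.21 ± 0.17 (edgeR adjusted p = 0.339). GSTF3 (AT2G02930) had 9.04, 3.21 and 6.92 CPM in C4 at 150 mM, against 4.57, 2.67 and 3.98 CPM at 0 mM, and in B2 5.08, 3.52 and 6.74 CPM at 150 mM, against 2.66, 4.03 and 3.03 CPM at 0 mM. In WT GSTF3 had 3.81 and 6.65 CPM at 150 mM, against 3.43, 2.34 and 5.42 CPM at 0 mM. The libraries overlapped in C4, B2 and WT. GSTF3 rose by 0.64 ± 0.23 on average (edgeR adjusted p = 0.0353), but 9 of 17 fits with a library left out, and the fit without both libraries that went against their labels, did not call it, with values from 0.49 to 0.76.

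GSTF6 (AT1G02930) and GSTF7 (AT1G02920), in a row with GSTF5 and GSTF4 on chromosome 1, were low in the same libraries. GSTF7 had 951, 309 and 914 CPM in C4 at 150 mM, against 1588, 1084 and 1411 CPM at 0 mM, and in B2 1086, 470.4 and 725 CPM at 150 mM, against 1365, 1119 and 1003 CPM at 0 mM. In WT GSTF7 had 75.7 and 705 CPM at 150 mM, against 1292, 1008 and 1018 CPM at 0 mM. All 9 libraries at 0 mM lay close together, and at 150 mM WT library 1, C4 library 2 and B2 library 2 were far below the rest. GSTF6 had 598, 207 and 619 CPM in C4 at 150 mM, against 881, 619.8 and 672 CPM at 0 mM, and in B2 605, 267 and 393 CPM at 150 mM, against 677, 598 and 494 CPM at 0 mM. In WT GSTF6 had 59.9 and 413 CPM at 150 mM, against 544, 490.2 and 537 CPM at 0 mM. The same 3 libraries were the lowest for GSTF6. GSTF7 fell by 1.01 on average (edgeR adjusted p = 0.0343), lost in 6 of 17 fits with a library left out (values from -1.797 to -0.73), and GSTF6 had -0.75 ± 0.32 (adjusted p = 0.0765), called without the library labelled WT 150 mM 2 (the low end of its range, -1.41).

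That unevenness at 150 mM marked a larger part of the family. The ratio of the highest to the lowest library had a median of 2.38 over the 37 tested members with a mean of at least 1 CPM at 150 mM, against 1.77 at 0 mM, while the medians over 18716 genes of that level were 1.58 at 150 mM, against 1.52 at 0 mM. Above the 90th percentile of those genes were 13 of the 37 members at 150 mM (percentile at 2.74), against 7 of 37 at 0 mM (2.49). The widest was GSTU11 (AT1G69930), with 19.3, 0.443 and 19.2 CPM in C4 at 150 mM, 1.603, 0.624 and 0.836 CPM in B2 and 0.619 and 0.468 CPM in WT, against 0.588 to 4.33 CPM in the 9 libraries at 0 mM. Its ratio of 43.6 came from C4 libraries 1 and 3. GSTU11 rose in C4 by 3.49 ± 0.93 (edgeR adjusted p = 0.0266), a call lost without C4 150 mM library 1 or 3 or without any C4 library at 0 mM, with values from 3.09 to 4.06, while the value was -0.78 ± 0.88 in B2 (adjusted p = 0.577), -2.24 ± 1.07 in WT (adjusted p = 0.172) and 0.16 ± 0.54 averaged. The ratios of GSTF7, GSTF6 and GSTF14 at 150 mM were 14.4, 10.3 and 10.2. The 3 libraries lowest in GSTF7 and GSTF6 were the 3 highest in GSTU9, at 145 CPM in C4 library 2, 141 CPM in B2 library 2 and 133 CPM in WT library 1. GSTU25 was uneven too, with 304, 92.8 and 354 CPM in C4 and 247, 105 and 162 CPM in B2 at 150 mM. In WT at 150 mM it had 78.2 and 94.2 CPM. All 9 libraries at 0 mM lay from 246 to 403 (median 295) CPM. The 3 libraries lowest in GSTU25 were both WT libraries and C4 library 2 at 150 mM.

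**Figure D3:**
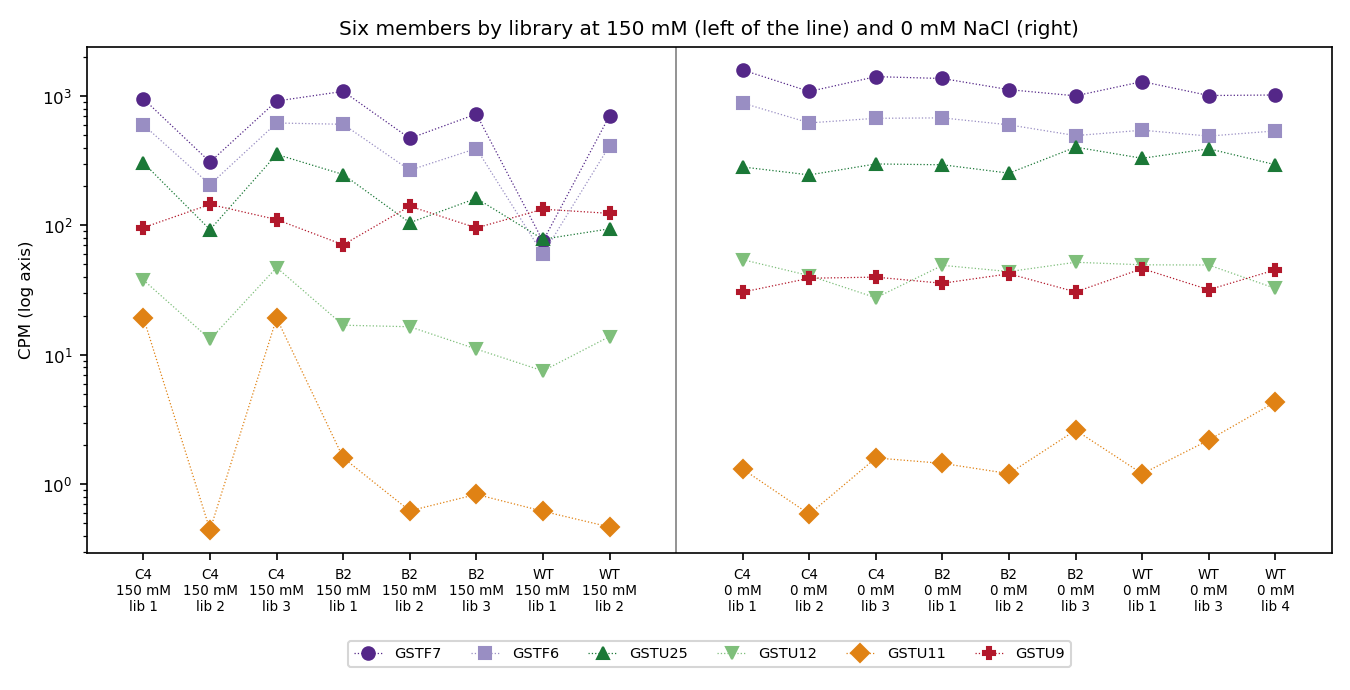
CPM on a log axis of GSTF7, GSTF6, GSTU25, GSTU12, GSTU11 and GSTU9 in each of the 8 libraries at 150 mM (left) and the 9 at 0 mM NaCl (right); dotted lines join libraries of the same concentration to guide the eye and have no other meaning. GSTF7 spans 75.7 to 1086 CPM at 150 mM, against 1003 to 1588 CPM at 0 mM, and GSTU11 reaches 19 CPM in C4 libraries 1 and 3.

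Neighbouring members were called alike in some rows of genes and not in others. Of the 41 members, 29 lie in 9 groups of neighbours with gaps under 10000 bases, and all 28 tau genes have 2 exon blocks. GSTU24, GSTU25 and GSTU26 all fell, GSTF9 and GSTF10 both fell and GSTU17 and GSTU18 both rose. In the row GSTU19 to GSTU23 on chromosome 1, GSTU19, GSTU20 and GSTU21 fell while GSTU22 (-0.00 ± 0.11) and GSTU23 (-0.30 ± 0.16) were not called. GSTU13, which acts in immunity together with indole glucosinolates, was flat at 0.02 ± 0.06 beside GSTU14, its closest copy. Of the 7 genes GSTU1 to GSTU7 in a row on chromosome 2, GSTU7 fell slightly, by 0.25 (edgeR adjusted p = 0.0159), and the other 6 were not called. In the row of GSTF4 to GSTF7 only GSTF7 was called, and of GSTU15 and GSTU16 only GSTU16 was, while GSTF5 and GSTU15 were not tested. The difference between neighbours was not tested. Whether neighbours changed alike more often than other members was not tested either.

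**Figure D4:**
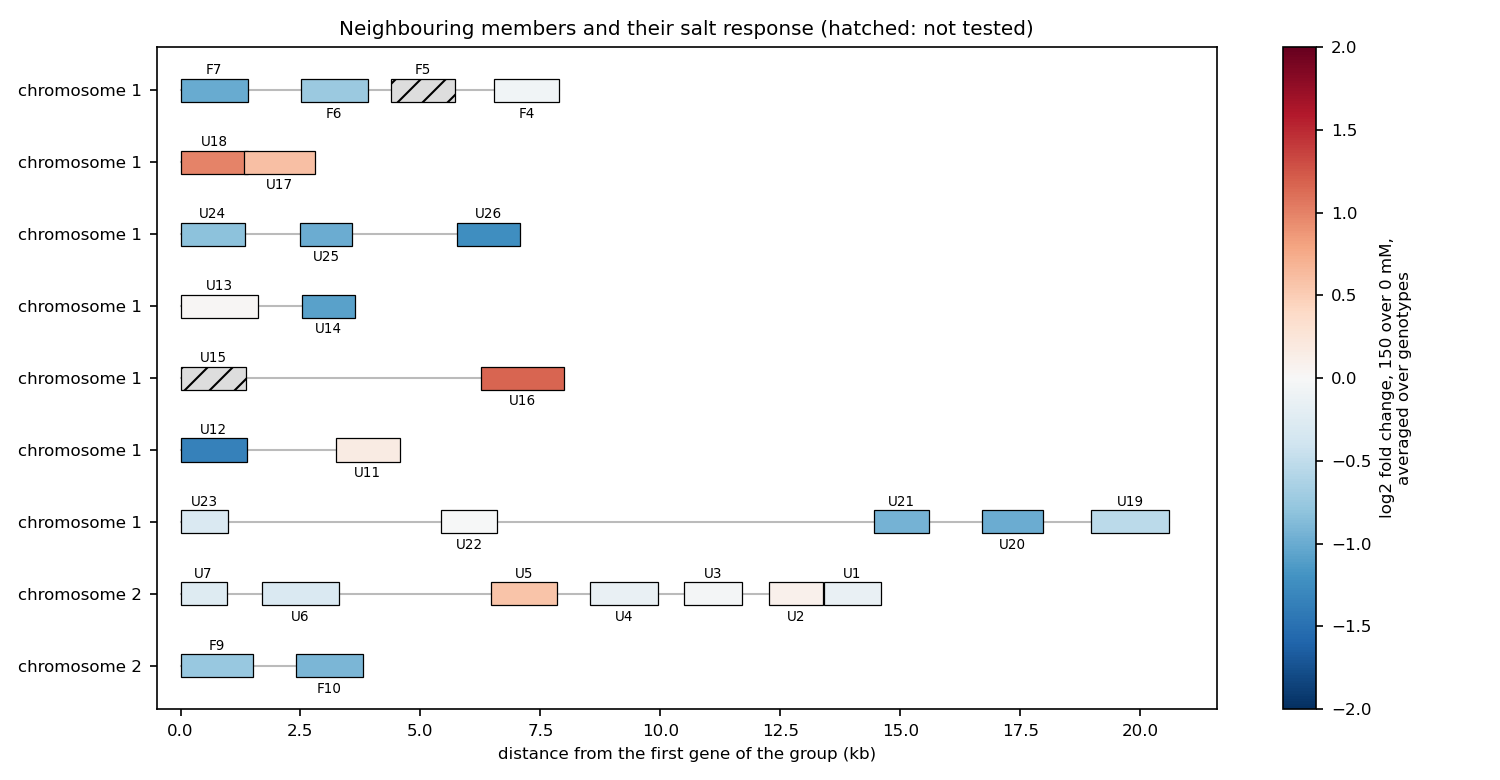
The 9 groups of neighbouring members, drawn to scale as boxes by distance from the first gene of each group in kilobases; labels omit the letters GST. Colour is the log2 fold change at 150 over 0 mM NaCl averaged over genotypes (red positive, blue negative), with GSTU24 to GSTU26 blue, GSTU17 and GSTU18 red and GSTU1 to GSTU7 pale except GSTU5 at 0.57.

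Summed over the family, the level was lower at 150 mM in all genotypes. The 41 members together took 6210 to 10110 CPM at 150 mM (median 7727, 8 libraries), against 10916 to 12906 CPM at 0 mM (median 11765, 9 libraries), without overlap. By group the sums were 8473 ± 1432 CPM in C4 at 150 mM, against 11766 ± 992 CPM at 0 mM, 8427 ± 1515 CPM in B2 at 150 mM, against 11749 ± 596 CPM at 0 mM, and 6833 ± 882 CPM in WT at 150 mM, against 11513 ± 519 CPM at 0 mM (mean ± SD, n = 3 each, and n = 2 for WT at 150 mM). The phi genes summed to 3141 to 5617 CPM at 150 mM, against 6241 to 7694 CPM at 0 mM, apart from each other, while the tau genes overlapped at 3046 to 4493 CPM at 150 mM, against 4208 to 5212 CPM at 0 mM. A few abundant genes set these sums, since 6 members exceed a group mean of 1000 CPM. The lowest phi sums at 150 mM were in WT library 1, C4 library 2 and B2 library 2, the libraries lowest in GSTF7.

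**Figure D5:**
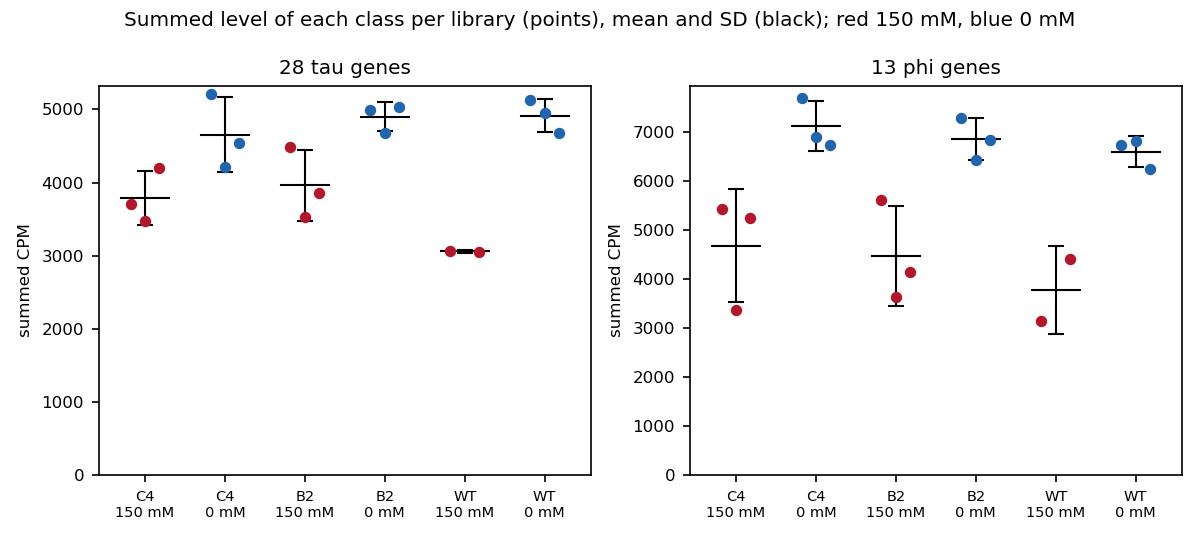
Summed CPM of the 28 tau genes (left) and the 13 phi genes (right) in each library (points), with group means and SDs as black lines, by genotype and NaCl. The phi sums at 150 mM end at 5617 CPM and those at 0 mM start at 6241 CPM, while the tau sums of B2 at 150 mM reach 4493 CPM, above the lowest C4 library at 0 mM at 4208 CPM.

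The remaining members fell or did not pass the test in the averaged response. GSTU8, GSTU10, GSTU21 and GSTF14 fell, by 0.42, 0.86, 0.95 and 1.11 on the log2 scale (edgeR adjusted p = 0.000825, 0.00172, 0.038 and 0.0294). GSTU8 ranged from 268 to 557 (median 439) CPM at 150 mM, against 507 to 629 (median 545) CPM at 0 mM, and GSTU10 from 14.9 to 61.9 (median 42.4) CPM at 150 mM, against 61.2 to 81.3 (median 68.1) CPM at 0 mM. GSTF14 ranged from 2.14 to 21.9 (median 9.71) CPM at 150 mM, against 5.79 to 33.4 (median 16.6) CPM at 0 mM, and its call was lost in 7 of 17 fits with a library left out (values from -1.41 to -0.85). GSTU21 stayed under 1.03 CPM in every library and was lost in 10 of 17 (from -1.23 to -0.80). Apart from GSTF6, GSTF2, GSTU11, GSTU13, GSTU22 and GSTU23, the members not called in the averaged response were GSTU1, GSTU2, GSTU3, GSTU4, GSTU5, GSTU6, GSTF4, GSTF12 and GSTF13. GSTU5 ranged from 83.2 to 259 (median 111) CPM at 150 mM, against 62.1 to 179.5 (median 82.1) CPM at 0 mM, with 0.57 ± 0.24 (adjusted p = 0.0669), and was called without C4 0 mM library 1, without the library labelled WT 150 mM 2 or without C4 150 mM library 1. GSTU1 had 144 to 178 (median 157) CPM at 150 mM, against 145 to 204 (median 179.9) CPM at 0 mM. It fell in WT by 0.37 (edgeR adjusted p = 0.0318), a call lost without any 1 of the 5 WT libraries (values from -0.41 to -0.32). GSTU4 had 53.97 to 130.0 (median 76.3) CPM at 150 mM, against 50.5 to 139 (median 84.6) CPM at 0 mM, and GSTU6 had 28.6 to 79.99 (median 43.1) CPM at 150 mM, against 39.2 to 85.1 (median 56.1) CPM at 0 mM. GSTF4 was the steadiest phi gene, with 13.4 to 17.7 (median 16.1) CPM at 150 mM, against 14.4 to 18.9 (median 16.8) CPM at 0 mM. GSTU2, GSTU3 and GSTF13 had medians of 29.1, 2.81 and 4.67 CPM at 150 mM, against 29.4, 3.05 and 7.39 CPM at 0 mM. GSTF12, the anthocyanin carrier, was near the limit of detection at up to 0.274 CPM at 150 mM, against up to 0.281 CPM at 0 mM. GSTU15 and GSTF5 were not tested, with at most 0.144 and 0.283 CPM in any library, so a change in these 3 was not detectable at this depth.

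Between genotypes no member passed the test. For C4 against WT, B2 against WT and the differences of their salt responses, edgeR called 0 of 39 members and 0% of the 21367 genes in each of 6 comparisons. At an unadjusted p under 0.05 there were 9 members for C4 against WT at 150 mM, 9 for B2 against WT at 150 mM, 3 for C4 against WT at 0 mM, 0 for B2 against WT at 0 mM, and 6 for each difference of salt responses. The share of all genes at that unadjusted threshold was not counted. No difference between genotypes was thus called in the family, which does not show that there was none. DESeq2 called GSTU11, GSTU12 and GSTU25 higher in C4 than in WT at 150 mM and GSTU8 higher in B2 than in WT at 150 mM (57 and 27 of all genes), and 0 members in the other comparisons. By edgeR these were 4.57 ± 1.18 for GSTU11, 1.62 ± 0.45 for GSTU12 and 1.54 ± 0.45 for GSTU25 in C4 over WT (adjusted p from 0.592 to 0.641), and 0.64 ± 0.16 for GSTU8 in B2 over WT (adjusted p = 0.438). Without C4 150 mM library 2, edgeR called GSTU11, GSTU12 and GSTU25 at 150 mM (log2 fold changes 5.14, 1.995 and 1.93), with 30 of 21354 genes called. It also called the difference of salt responses of GSTU11 (6.296), with 8 of all genes. The library left out was the lowest in GSTU11, GSTU12 and GSTU25 among the C4 libraries at 150 mM. These calls are therefore no separate support for those of DESeq2. Without the library labelled WT 150 mM 2, WT at 150 mM is library 1 alone and is assumed to vary like the other groups. Calls then rose over all genes as well, so only log2 fold changes of the members past the threshold are given. In B2 over WT at 150 mM they were 3.303 for GSTF7, 2.79 for GSTF6, 1.599 for GSTU10, 0.87 for GSTU8 and -0.83 for GSTU17. In C4 over WT at 150 mM they were 3.24 for GSTF7 and 1.42 for GSTU10. Median standard errors of the members were 0.32 on the log2 scale for both comparisons at 150 mM and 0.28 for both at 0 mM. Without both libraries that went against their labels, 1 member was called for C4 against WT at 150 mM (GSTU10), 5 for B2 against WT at 150 mM and 1 for the difference of salt responses of B2 and WT (GSTU10), against 78, 544 and 54 of all genes. The comparisons of C4 and B2 with WT share the WT libraries.

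Genes of glutathione synthesis, turnover and conjugate transport fell where they were called in the averaged response. Among 6 genes of glutathione synthesis and reduction 0 rose and 3 fell: GSH1, the rate-limiting glutamate-cysteine ligase, by 1.05, GSH2, glutathione synthetase, by 0.58, and the plastid thiol transporter gene CLT1 by 0.73 (edgeR adjusted p = 7.76e-06, 5.35e-05 and 8.62e-05). GSH1 averaged 550.4 ± 76.1 CPM in C4 at 150 mM, against 1118 ± 271 CPM at 0 mM (SD, n = 3 each). GR1, cytosolic glutathione reductase, had 0.25 ± 0.10 (adjusted p = 0.0548). Of 7 turnover genes 0 rose and 2 fell (GGCT2;3 and GGCT2;1, gamma-glutamyl cyclotransferases, at -0.53 ± 0.11 and -0.69 ± 0.20), with GGCT2;2 at 0.27 ± 0.13 not called. Of 4 ABCC transporters of conjugates 0 rose and 2 fell, ABCC3 by 0.97 and ABCC2 by 0.33 (edgeR adjusted p = 0.0044 and 0.024), with ABCC1 at -0.16 ± 0.13 not called. The background for these counts is the 21.5% of genes that rose and 20.5% that fell.

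Other GST classes and regulators were called in both directions. Called were 33.3% of the other GST classes, 50% of the peroxidase-like genes and 33.3% of the TGA and xenobiotic list, against the background of 42.1% of all tested genes. In 12 genes of the lambda, zeta, theta, dehydroascorbate reductase and tetrachlorohydroquinone dehalogenase-like classes, 2 rose (TCHQD at 0.41 ± 0.11, and GSTT2) and 2 fell (DHAR2, which recycles ascorbate, at -0.78 ± 0.11, and GSTL1 at -1.202 ± 0.21), while DHAR1 was at -0.18 ± 0.12 (edgeR adjusted p = 0.242). Of 8 glutathione peroxidase-like genes 3 rose and 1 fell, among them GPX2 at 0.65 ± 0.11, GPX1 at 0.70 ± 0.12 and GPX8 at -0.19 ± 0.06. Of 9 TGA factors and genes of the xenobiotic response 2 rose and 1 fell: SCL14, a partner of TGA factors, at 0.49 ± 0.07, the cytochrome P450 gene CYP81D11 at 0.56 ± 0.17 and OPR1, an oxophytodienoate reductase gene, at -0.70 ± 0.20. All 8 tested genes of camalexin and glucosinolate synthesis fell, with a median of -0.82, among them CYP83A1 of the aliphatic branch (-1.47 ± 0.19), CYP83B1 of the indole branch (-0.76 ± 0.11) and SUR1, the shared C-S lyase (-0.72 ± 0.09). This list was chosen with earlier results of these data known and is not independent evidence of its direction. Of 7 anthocyanin genes 2 had enough reads and neither passed the test, A5GT at -0.33 ± 0.49 and UF3GT at -0.78 ± 0.96.

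Some markers of root and shoot cells also differed between 150 and 0 mM. Called in the averaged response were 100% of the root hair, cortex and stele lists, which are short. The share was 30% of the shoot markers, 33.3% of the endodermis markers and 0% of the root cap markers. The background is 42.1% of all tested genes, with 21.5% higher and 20.5% lower. All 4 root hair markers fell, among them PRP3 by 1.43, EXPA18 by 1.199 and COBL9 by 0.96, and their sum was 73.1 to 144 CPM at 150 mM, against 176 to 304 CPM at 0 mM. Both cortex markers fell (sum 5.50 to 16.9 CPM at 150 mM, against 11.7 to 20.7 CPM at 0 mM), as did 1 of 3 endodermis markers (sum 329 to 544 CPM at 150 mM, against 370 to 566 CPM at 0 mM). In the stele list 1 rose and 3 fell (sum 344 to 507 CPM at 150 mM, against 354 to 483 CPM at 0 mM), and of 3 root cap markers 0 passed (sum 8.03 to 16.6 CPM at 150 mM, against 8.94 to 17.8 CPM at 0 mM). Of 10 tested shoot markers 3 rose and 0 fell (0 called in C4, 0 in B2 and 2 higher in WT), with a sum of 212 to 327 CPM at 150 mM, against 91.8 to 248 CPM at 0 mM, and RBCS2B was at 0 to 0.0243 CPM. The root hair sums were thus apart between 150 and 0 mM and the shoot sums overlapped, and the part of any marker list in the GST result was not tested.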

How the data were processed

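Arabidopsis roots were sequenced as stranded mRNA libraries. The authors deposited counts per gene, made with featureCounts 2.0.3 (strand setting 2, mapping quality of at least 10), per the file headers. FastQC 0.12.1, fastp, STAR 2.7.11a and TAIR10 are named in the submitters' processing notes. The file header names 32 alignment files, and the columns of the labelled samples were used here. WT 0 mM columns 1 and 2 were taken as 1 library, and the 17 genes that differed between them were left out (0 members), so 17 libraries entered the tests, where 18 samples had been planned.

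Tests used edgeR 4.0.16 (R 4.3.3) with TMM scaling, filterByExpr, a robust quasi-likelihood model with group means, two-sided p-values and Benjamini-Hochberg adjustment over 21367 genes at a threshold of 0.05. Standard errors were taken as the size of the log2 fold change over the root of F. CPM use TMM-scaled library sizes. A simulation with known changes was run for the averaged salt response only, so it did not test the comparisons within or between genotypes. Alternatives were DESeq2 1.42.0 as the test, its size factors in edgeR, no filter, a fit of the compared groups alone, each library left out, both doubted libraries left out, and the near-identical column counted as a library.

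Sequences were read from the TAIR10.1 genome of RefSeq, and coding sequences were aligned in pairs with Biopython 1.88. Values in every library are given for members called in at least 2 genotypes, for the 5 most abundant per kilobase and for both near-identical pairs, limited to the 16 with the largest averaged change. Up to 3 genes per list, by lowest adjusted p, and GSH1, GSH2, GR1, DHAR1 and ABCC2 are named beside them. GSTU11 and GSTU25 by library, GSTT2 and the promoter windows were chosen after their values were seen. The members and all lists were chosen with earlier results of these data known.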

Additional observations from a re-analysis of the deposited data

How the results depend on the processing

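The count of members called for salt averaged over genotypes was 20 to 26 with 1 library left out (24 with all), and stayed within 1.5 times that count under each other alternative run. With 1 library left out the counts were 7 to 13 for salt in C4, 4 to 16 in B2 and 2 to 20 in WT, 0 to 3 for C4 against WT at 150 mM, 0 to 5 for B2 against WT at 150 mM, 0 to 0 for both comparisons at 0 mM, and 0 to 1 for both differences of salt responses. The lowest count in WT and the highest for B2 against WT at 150 mM came from fits with 1 WT library at 150 mM. Calls over all genes moved as well: in B2 the fits with 4 members called had 703 and 1174 genes called, and the fit with 16 had 5728. DESeq2 called 17 members for salt in C4 (11 by edgeR), 3 for C4 against WT at 150 mM and 1 for B2 against WT at 150 mM (0 by edgeR). For salt in C4 it called 3556 of all genes, against 2592 by edgeR. When the fit held only the groups compared, 6 members were called for salt in WT (19 with all groups), where fewer libraries inform the spread, and 992 of all genes. Without both doubted libraries, 1 member was called for C4 against WT at 150 mM, 5 for B2 against WT at 150 mM and 1 for the difference of salt responses of B2 and WT. The cause was not tested. Of 1156 values of named members with 1 library left out, 70 lost and 14 gained a call, and of 391 under the other alternatives 19 lost and 10 gained, with 0 called values changing sign. These totals include values that were not called with all libraries. They also include fits that left out a library outside the comparison. They therefore do not measure how stable the calls within a genotype were. No paired analysis was possible because the replicate numbers come from the order of the samples and mark no shared plant, plate or day. Between genotypes at 150 mM, precision is limited by the 2 WT libraries.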
